A study of Drosophila melanogaster with 2 samples.

Results

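Distal intergenic peaks of the Drosophila transcription factor Atf-2 are described here, that is, binding sites that lie between genes and away from any coding promoter. They were taken from the list of reproducible peaks, thresholded by its submitters on the irreproducible discovery rate (IDR), on build dm6. A peak was kept if its summit, the position of highest signal, lay more than 500 bp from every transcription start site (TSS) of a protein-coding gene and outside every annotated gene of Release 6. Of 3265 IDR peaks, 418 met both conditions (12.8%, exact 95% binomial interval 11.7 to 14.0%). The remaining peaks comprised 1117 distal intronic, 114 distal exonic and 1616 promoter peaks, the last with a summit within 500 bp of a coding TSS. All samples were whole Drosophila melanogaster embryos of mixed sex aged 0 to 24 h, from one transgenic line that stably carries Atf-2 with GFP at its C-terminal end, and the chromatin was precipitated with an antibody to GFP. There was 1 group, of biological replicates 2 and 3, and hence no comparison of conditions. The control libraries and replicate 1 were not analysed here. An embryo collection of this span mixes stages and all tissues, so a peak may come from a few cells or from many. The lists hold no read totals, so the depth of each library is unknown and a peak's signal carries no counting interval.

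Atf-2 belongs to the basic leucine zipper (bZIP) factors and acts downstream of the stress kinase p38, and its relatives in mammals bind as dimers to the cAMP response element (CRE), TGACGTCA. Sites far from promoters often lie in enhancers, stretches of DNA that regulate a gene at a distance and on either side of it, or in insulators, which bind factors such as CTCF and separate neighbouring domains. The gene nearest to such a site is therefore a description of position and not an assignment of a target.

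The sequences at the summits came from the Release 6 assembly of RefSeq, and those shown are the strongest site, a second strong site for contrast, and strong sites with either of 2 sequence features described further on. The strongest site lay upstream of Atf3, which encodes another bZIP factor, and is shown at chrX:1276680-1276800, and the site ranked 3 among the distal intergenic peaks lay at chr3R:16222429-16222549, before tara. Both are on the plus strand, with the summit base in a capital.
Atf3: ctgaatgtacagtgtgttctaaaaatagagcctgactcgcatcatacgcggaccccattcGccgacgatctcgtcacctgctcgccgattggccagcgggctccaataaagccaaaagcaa
tara: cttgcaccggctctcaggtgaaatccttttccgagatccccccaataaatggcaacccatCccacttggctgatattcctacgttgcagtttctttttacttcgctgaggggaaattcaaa
Neither stretch holds the CRE. The next 6 hold the gapped word CACTGNNAG, in which N is any base, and are read along the strand of that word with the word and the summit base in capitals. They lie at chr3R:9534332-9534420 (minus strand, nearest to mura, a RING finger gene), chr2L:1433877-1433999 (minus, nearest to CG43401), chr3L:18236006-18236125 (minus, nearest to lncRNA:CR45937), chr2L:2199342-2199455 (minus, nearest to COX7AL2), chr3L:762502-762614 (minus, nearest to the transfer RNA gene tRNA:Ile-TAT-1-1) and chr2L:5476751-5476866 (plus, nearest to mid, a T-box factor gene).
mura: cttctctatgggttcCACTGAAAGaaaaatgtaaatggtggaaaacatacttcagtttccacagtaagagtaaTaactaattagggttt
CG43401: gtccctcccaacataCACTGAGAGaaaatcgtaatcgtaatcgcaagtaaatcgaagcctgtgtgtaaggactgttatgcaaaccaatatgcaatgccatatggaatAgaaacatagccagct
lncRNA:CR45937: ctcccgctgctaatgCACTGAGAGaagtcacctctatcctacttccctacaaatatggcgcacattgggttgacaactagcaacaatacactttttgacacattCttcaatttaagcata
COX7AL2: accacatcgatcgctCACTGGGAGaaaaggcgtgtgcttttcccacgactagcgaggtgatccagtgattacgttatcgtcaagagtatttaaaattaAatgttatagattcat
tRNA:Ile-TAT-1-1: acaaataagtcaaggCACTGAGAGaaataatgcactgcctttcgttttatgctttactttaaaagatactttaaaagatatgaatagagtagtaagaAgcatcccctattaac
mid: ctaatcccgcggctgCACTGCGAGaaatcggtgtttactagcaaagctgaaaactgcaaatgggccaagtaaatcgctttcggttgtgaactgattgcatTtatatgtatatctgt
In these 6 the word starts 58, 92, 89, 83, 82 and 85 bp before the summit base, in the order shown. Among the 8 strongest members with the word, the 2 not printed have it 41 and 6 bp before the summit base. The last 3 hold AGATGGCGC or AGGTGGCGC, forms of the core of the fly CTCF site, shown in the same way. They lie at chr3R:28672372-28672444 (minus, nearest to Sid), chr3L:14111611-14111667 (plus, nearest to Sox21b, which encodes a SOX family factor) and chr2L:9567469-9567517 (minus, nearest to lncRNA:CR44149). Here the word starts 42 bp before, 18 bp after and 10 bp after the summit base. Other strong members, not printed, have the word 98 bp before (nearest to CR31958), 62 bp after (CG15282) and 27 bp before (Jhbp1) the summit base. The members named for these forms are not a ranking by signal. Stronger members that hold one, such as that nearest to CG14762 (signal 350), were left out of the choice.
Sid: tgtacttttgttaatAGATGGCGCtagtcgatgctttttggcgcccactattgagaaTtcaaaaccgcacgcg
Sox21b: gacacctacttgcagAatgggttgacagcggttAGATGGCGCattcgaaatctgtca
lncRNA:CR44149: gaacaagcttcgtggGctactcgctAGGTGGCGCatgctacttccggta

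The signal of a peak is the value that the submitters' peak caller wrote for it, and it ranks and describes peaks within these lists only. Distal intergenic peaks had a median signal of 122, with quartiles at 98.9 and 186 and a range of 84.6 to 1913. The median was 129 in distal intronic peaks and 135 in promoter peaks. The ratio of the distal intergenic median was 0.944 to the distal intronic one and 0.903 to the promoter one. In replicate 2 alone these ratios were 0.917 and 0.824, and in replicate 3 alone they were 0.956 and 0.933, so the distal intergenic median was the lower one in both replicates. The order against distal intronic peaks did not hold among strong peaks. Among the strongest 1632 peaks of the IDR list the median was 197 for 181 distal intergenic peaks, 179 for 539 distal intronic peaks and 202 for 854 promoter peaks. A signal of at least 300 was reached by 31 distal intergenic peaks (7.42%, interval 5.09 to 10.4%), by 79 distal intronic peaks (7.07%) and by 211 promoter peaks (13.1%, 11.5 to 14.8%).

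**Figure D1:**
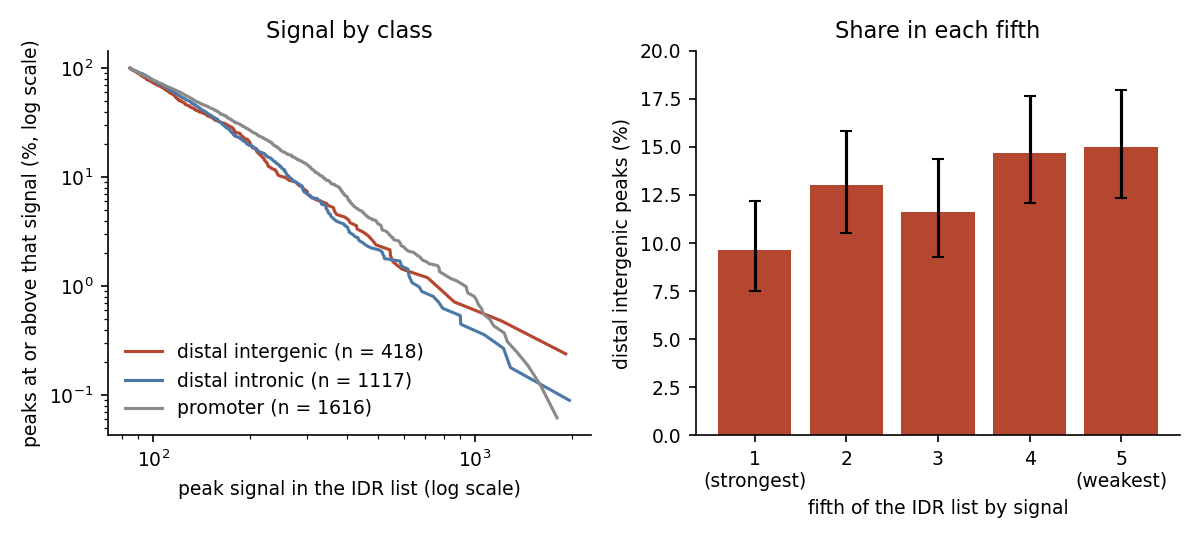
Left, share of peaks (%, log axis) at or above each signal (log axis) for distal intergenic, distal intronic and promoter peaks; the promoter curve lies above the others around a signal of 300. Right, share of IDR peaks (%) that were distal intergenic in each of 5 equal parts of the list by signal, with exact 95% binomial intervals; it was 9.65% in the strongest of the 5 parts and 15.01% in the weakest.

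Distal intergenic peaks made up 9.65% of the strongest 653 peaks when the list was cut into 5 equal parts (63 of 653, interval 7.49 to 12.2%) and 15.01% of the weakest (98 of 653, 12.4 to 17.98%), with 13.0%, 11.6% and 14.7% in the parts between. Every one of the 418 had a region in both replicate lists, each of 30000 regions with background among them, so this overlap alone is no call. A stricter count asked for overlap by at least 1 bp with one of the 3265 strongest regions of each replicate. This was met in both replicates by 288 distal intergenic peaks (68.9%, interval 64.2 to 73.3%), by 73.9% of distal intronic peaks (71.3 to 76.5%) and by 73.8% of promoter peaks (71.6 to 76.0%). The intervals of the distal classes overlap. All 63 members of the strongest part met it, as did 84 of 85 in the next, 64 of 76, 62 of 96 and, in the weakest, 15 of 98. The same counts by part were not made for all IDR peaks or for the other classes, so this fall is not particular to distal intergenic peaks. The signal that orders the parts also comes from both replicates, so it is not independent of their ranks. The weakest members lie next to the submitters' threshold, and only a few of them were among the strongest of both replicates.

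The signal of a distal intergenic peak was a median 1.80 times as high in replicate 2 as in replicate 3, with an SD of 0.53 of the log2 ratio across 418 peaks. Without a common scale of the lists, the ratio does not measure binding. Spearman's rho of the signals in both replicates was 0.63 across these peaks, a description over points that share both libraries and were selected on their pooled signal. Summit positions were close: the summit of the overlapping region was a median 9 bp away in replicate 2 and 12 bp away in replicate 3, and it was within 50 bp for 89.5% and 84.4% of peaks. Members can be neighbours on one region. The 418 summits fall in 416 intervals, 2 of which carry 2 summits, and 16 members share their replicate signals with another member.

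**Figure D2:**
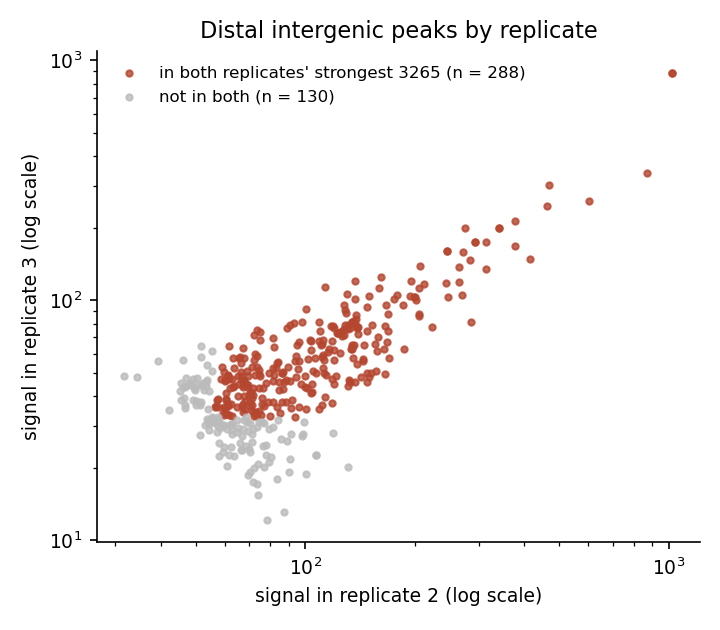
Signal of each of the 418 distal intergenic peaks in replicate 2 (horizontal, log axis) and in replicate 3 (vertical, log axis), with the 288 that overlapped the 3265 strongest regions of both replicates in red and the other 130 in grey. The point at the upper right is the peak before Atf3, at 1022 and 885; signals spread most among the weak peaks.

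Atf3 had the strongest distal intergenic peak, and the second strongest of all IDR peaks. Its summit lay at position 1276740 of chromosome X, 1456 bp upstream of the gene, with a signal of 1913 in the pooled replicates, 1022 in replicate 2 and 885 in replicate 3. A second summit in the same interval, 1662 bp upstream, had a signal of 178, and another, 3911 bp upstream, had 91.0. The second shares its replicate regions with the first, and the farthest, with 56.1 in replicate 2 and 31.7 in replicate 3, was not among the strongest regions of both. All 3 lie in the 12005 bp between Atf3 and CG32812, genes transcribed away from each other.

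The other bZIP genes flanking a member, of 21 that were looked up, were REPTOR and CrebA. REPTOR encodes a factor that acts when the growth kinase complex TORC1 is low, and CrebA one that drives genes of the secretory pathway. The peak beside REPTOR lay between its 3′ end, 267 bp away, and Esyt2, and 114 bp upstream of the small nuclear RNA gene snRNA:U6:96Ac. It had a signal of 113, with 90.3 in replicate 2 and 19.2 in replicate 3. The peak before CrebA lay 2659 bp upstream of that gene and 1263 bp upstream of CG43248, with a signal of 95.3, of 69.8 in replicate 2 and of 24.0 in replicate 3. Neither of these was among the strongest 3265 regions of both replicates, in contrast to the first 2 summits at Atf3.

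Genes of the Polycomb group, which keep developmental genes silent, flanked the members ranked 2 and 9. Psc encodes a subunit of Polycomb repressive complex PRC1 and Su(z)2 a close relative of it, and both lie on chromosome arm 2R. The peak at 13035341 lay in the 36783 bp between the 3′ ends of Su(z)2 and CG13323, 27430 bp from Su(z)2 and 9354 bp from CG13323. Its signal was 1211 in the pooled replicates, 873 in replicate 2 and 341 in replicate 3. The peak at 12958201 lay between the 3′ ends of CG13321, 2489 bp away, and Psc, 7796 bp away. It had a signal of 544, of 341 in replicate 2 and of 199.8 in replicate 3, and 3 weaker members lay in the same gap.

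A pair of strong peaks lay before tara, which encodes a SERTAD family protein with roles in transcription and sleep. The stronger was 3162 bp upstream of the gene and 906 bp upstream of lncRNA:CR45643, with a signal of 862, of 604 in replicate 2 and of 259.6 in replicate 3. The other was 1166 bp upstream of tara, with 428, 271 and 159.7. The coding gene on the far side of both was mtSSB, for the mitochondrial single-strand DNA binding protein. In both replicates the more distant of the pair was the stronger.

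The members ranked 4, 5 and 6 lay beside different kinds of genes and on different sides of them. The first lay between the 3′ ends of blw, which encodes the alpha subunit of ATP synthase, 771 bp away, and CycB, the mitotic cyclin, 570 bp away. Its signal was 774, with 469 in replicate 2 and 302 in replicate 3. Another lay 94 bp upstream of lncRNA:CR31044, in the gap between Cyt-c1L and eEF1gamma, a translation elongation factor gene 5704 bp away, with 712, 461 and 247. A further one lay 1299 bp past the 3′ end of CG31668 and 4510 bp upstream of COX7AL2, with 592, 376 and 215. The order of the 3 was the same in both replicates.

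Members ranked 7 and 8 were close to the distance that separates this class from promoters. The first lay in the short gap between the divergent genes CG17896, 520 bp away, and CG17778, 599 bp away, with a signal of 556, of 414 in replicate 2 and of 149 in replicate 3. The other lay 550 bp upstream of sp3 and 7564 bp past the 3′ end of C15, a homeobox gene needed for leg tips, with 546, 376 and 168. At the distance threshold itself, the members nearest to a coding TSS were at 503 bp (CG43066, signal 90.7), 514 bp (CG14314, 118) and 520 bp (CG17896). The intergenic promoter peaks farthest from a TSS were at 499 bp (by, signal 146) and, for both CG42571 and CG10479, at 490 bp (signals 103 and 214). In all, 854 promoter peaks lay outside genes, with a median signal of 134, so intergenic peaks lay on either side of the line at 500 bp. Whether they form one run across it was not tested.

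The remaining members among the strongest 20 lay at varied distances from coding genes. The peak between RFeSP and chinmo, a BTB zinc finger gene of neuronal timing, lay 12386 bp upstream of chinmo and had a signal of 493, with 315 in replicate 2 and 175 in replicate 3. The peak between slp1 and slp2, forkhead genes of segmentation, lay 4312 bp upstream of slp2 and had 429.7, with 284 and 148. The peak between Glut3, a sugar transporter gene, and the homeotic gene abd-A lay past the 3′ ends of both, at 8879 and 8314 bp, and had 394, with 264 and 119. In each of these 3 the signal was higher in replicate 2 than in replicate 3, as it was in the median over all 418 peaks (1.80 times). The peak whose nearest coding gene was sty, which encodes an inhibitor of receptor tyrosine kinase signalling, had 404, with 264 and 138. It lay 6139 bp from the 3′ end of sty and 14931 bp from that of Ids. A peak close to a coding gene was the one 633 bp upstream of RasGAP1, a Ras inhibitor gene, and 1465 bp from the 3′ end of CG10809, with 468, 293 and 175. Wide and narrow distances to coding genes thus occur side by side among members of like signal. Noncoding RNA genes lay nearer to some of them, at 407 bp for the sty peak and 1700 bp for the abd-A peak. The peak in the gap between dati and lgs, a coactivator gene of Wingless signalling, had 367, with 244 and 118. It lay 12139 bp past the 3′ end of lgs on chromosome 4, and 1249 bp upstream of lncRNA:CR43437. The peak between Atg13, an autophagy gene, and stck, which encodes an adhesion adaptor, had 372, with 269.6 and 105, and lay 1234 bp upstream of stck. The last 3 were beside CG43131, whose other neighbour is RabGGTa (signal 480.2), between CG3149 and AdamTS-B (451), and between CG13896 and hng3 (409). All 20 were among the strongest 3265 regions of both replicates.

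Distal intergenic summits lay near gene edges more often than the sequence that met the same rule. That sequence measured 33.3 Mb and was cut into 165653 windows of the same width, 100 bp on each side of a centre base, called eligible windows. The nearest gene edge, coding or not, was a median 1332 bp from a summit (quartiles 568 and 3566, range 6 to 36635 bp), against a median of 2898 bp from an eligible window. It was within 1000 bp for 174 summits (41.6%, interval 36.9 to 46.5%) and for 24.3% of windows. The nearest coding TSS was a median 4119 bp away, against 8057 bp for windows. It was beyond 10000 bp for 105 summits (25.1%, 21.0 to 29.6%), against 44.0% of windows, and beyond 20000 bp for 24 (5.74%, 3.71 to 8.42%), against 26.4%.

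Long gaps and chromosome ends hold a larger part of the eligible sequence than of the peaks. Coding gaps of up to 100 kb held 413 of the 418 summits (98.8%) and 80.2% of windows. The other windows include the 4.92% at a chromosome end, with a coding gene on one side only and hence no gap length. Within them the median distance to a gene edge was 1325 bp for summits and 2254 bp for windows, and that to a coding TSS was 4086 bp for summits and 5780 bp for windows. The difference was thus smaller there but had the same direction. Soft-masked repeats made up a mean 17.6% of the bases around these summits and 23.5% of those of the 164650 windows without undetermined bases, and the part of mappability in these differences was not tested.

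**Figure D3:**
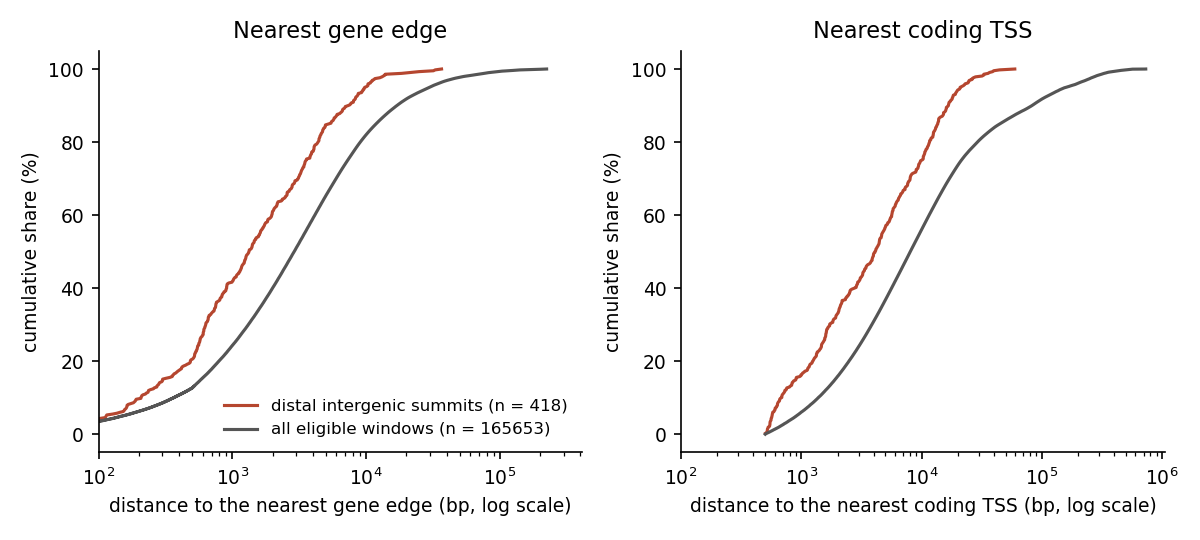
Cumulative share (%) of the 418 distal intergenic summits (red) and of all 165653 eligible windows (grey) by distance to the nearest gene edge (left) and to the nearest coding TSS (right), in bp on a log axis. Both red curves lie to the left of the grey ones, with medians of 1332 against 2898 bp and of 4119 against 8057 bp.

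The nearest gene edge was the 5′ one, so that the summit lay upstream of that gene, for 227 of 418 summits (54.3%, interval 49.4 to 59.2%), against 48.4% of eligible windows. Upstream members had a median signal of 125 and downstream members one of 119. The upstream share depended on the sites nearest to promoters. Beyond 1000 bp of a coding TSS it was 50% of 350 summits (44.6 to 55.4%), against 47.1% of windows, and beyond 2000 bp it was 48.9% of 280 summits (42.9 to 54.9%), against 45.9%. These intervals include the values of the windows, so no difference was detectable at those distances. Between coding genes, 34.0% of summits lay in gaps whose genes are transcribed away from each other (29.4 to 38.7%), against 24.0% of windows. Tandem genes flanked 47.4% of summits and 49.4% of windows, and genes that face each other flanked 18.7% of summits and 21.6% of windows. A further 4.92% of windows, and no summit, lay at a chromosome end with a coding gene on one side only. How far the share in divergent gaps depends on sites close to a TSS was not tested.

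The nearest annotated entry was a protein-coding gene for 56.0% of summits, against 47.9% of windows, and a noncoding RNA gene for 33.0% of summits (interval 28.5 to 37.8%), against 19.3%. A transposable element, which the annotation lists among genes, was nearest for 35 summits (8.37%, 5.90 to 11.5%), against 29.9% of windows. A transfer RNA gene was nearest for 8 summits (1.91%), against 0.925%. Of the 418 summits, 30 lay within 500 bp of the start of a noncoding RNA gene or pseudogene and would count as promoter peaks under a rule that includes them.

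By chromosome arm, distal intergenic peaks were densest per Mb of eligible sequence on the small chromosome 4, where the count was 5 of 15 IDR peaks. The density was 17.0 per Mb on 2L (106 peaks), 14.6 on 3L (121), 11.0 on 3R (81), 9.27 on 2R (60) and 9.26 on X (45). On X they made up 7.29% of IDR peaks (interval 5.37 to 9.64%), against 17.5% on 2L (14.5 to 20.8%) and 18.4% on 3L (15.5 to 21.5%). Over the genome the density was 12.6 per Mb, against 22.5 per Mb of distal intronic sequence and 105 per Mb of sequence within 500 bp of a coding TSS.

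Most gaps with a distal intergenic peak had one. The 418 summits fell into 302 gaps between coding genes, of 4712 with eligible sequence, and 230 gaps held 1 summit. The other 72 held 188 summits, and 4 gaps held 5 or more. A further IDR summit lay within 2000 bp of 100 members (23.9%, interval 19.9 to 28.3%), against 31.2% of distal intronic peaks (28.5 to 34.1%) and 25.7% of promoter peaks. For 74 of these 100 the nearest other summit was itself distal intergenic, and for 20 it was a promoter peak.

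The fullest gap, between CG44362 and CG7560 on 3L, held 9 summits in 27292 bp. Their signals ranged from 85.5 to 234, and 6 of the 9 lay between 6702 and 10499 bp upstream of CG7560. The gap between RFeSP and chinmo on 2L, 37097 bp long, held 7, with signals of 95.04 to 493. From RFeSP towards chinmo their signals were 95.04, 197, 147, 493, 241, 197 and 107, and the strongest was the one in the middle, 12386 bp before chinmo.

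The gap between hng3 and CG13898 on 3L, 47937 bp long, also held 7, with signals of 89.3 to 278, the highest at 538 bp from the 3′ end of CG13898. It includes 2 of the transfer RNA genes for isoleucine, tRNA:Ile-TAT-1-1 and tRNA:Ile-TAT-1-2, each nearest to at least one of these summits. The gap between NijA, a ninjurin gene, and CG43245 on 3L, 75047 bp long, held 5, with signals of 113 to 292. The strongest of these lay 31868 bp before CG43245, and the farthest, at 36635 bp, was the member with the largest distance to any gene edge. From first to last, the summits of these 4 gaps spanned 18893, 33680, 40372 and 34609 bp, in the order described. Most of those in the fullest gap lay close together.

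**Figure D4:**
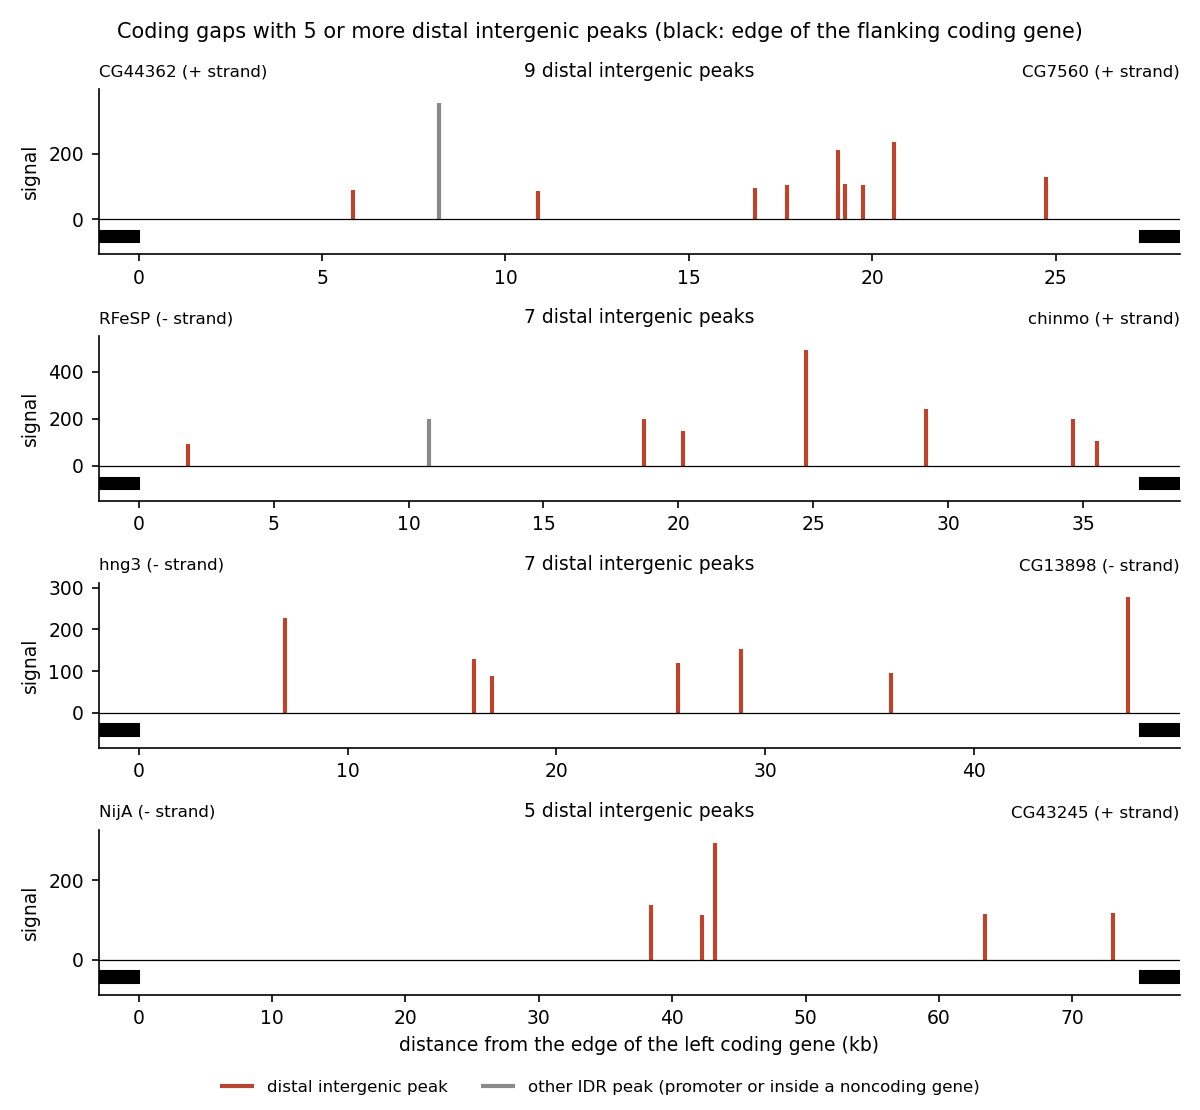
Signal of each IDR peak (vertical) against the distance from the left coding gene (kb) in the 4 gaps with 5 or more distal intergenic peaks, which are in red; other IDR peaks are in grey and the edges of the flanking coding genes in black. The tallest red line is at 234 in the first gap, 493 in the second, 278 in the next and 292 in the last.

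Genes that flank a member were counted in 6 lists, beside all coding genes, of which 565 of 13945 (4.05%, interval 3.73 to 4.39%) flanked one. Of 45 homeotic and segmentation genes 16 did (35.6%, 21.9 to 51.2%), and of 51 other homeobox genes 13 (25.5%, 14.3 to 39.6%). Such genes lie in long gaps: a gene of these lists had a median 17.9 and 18.9 kb of eligible sequence beside it, against a median of 0 for all coding genes. Per Mb of eligible sequence beside them, the homeotic and segmentation genes had 21.2 members and the other homeobox genes 12.4, against 12.6 for all coding genes. Relative to the sequence available, the density of the homeobox list was near that of all coding genes. That of the homeotic and segmentation list, with 21 members, was higher. The densities carry no interval, and the one for all coding genes includes the longest gaps and the chromosome ends. Coding gaps of up to 100 kb held 98.8% of members but 80.2% of eligible windows, so the density within them was higher. These are descriptions of lists chosen with earlier results known, with no test.

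Among homeotic and segmentation genes the strongest members flanked slp1 and slp2, abd-A, and tsh, a zinc finger gene of the trunk. The peak beside tsh had a signal of 208, with 136 in replicate 2 and 65.1 in replicate 3, and lay 9561 bp past its 3′ end. The others of this list that flank a member are Dfd, Scr, bcd, btd, dpp, ems, kni, oc, odd, opa, sog and wg. Among other homeobox genes the strongest flanked C15, Optix, an eye gene, and zfh2, a wing gene. The peak in the gap upstream of Optix had 350.1, with 247 in replicate 2 and 104 in replicate 3, but lay 640 bp from CG14762 and 16888 bp from Optix. The peak upstream of zfh2 had 262, with 137 and 120.0, and lay 3888 bp from that gene.

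In the cell recognition list 10 of 58 genes flanked a member (17.2%), at 8.56 members per Mb. The strongest were beside dpr17 (signal 291), robo2, an axon guidance receptor gene (203), and 18w, a Toll family gene (200.5). Of 29 nuclear receptor and ecdysone genes 2 did, Hr51 (177) and kni (150.4), at 6.65 per Mb. Of 92 ribosomal protein genes 1 did, RpLP0 (92.7, with 50.9 in replicate 2 and 44.2 in replicate 3), at 2.23 per Mb, and the median gene of that list had no eligible sequence beside it. Of 21 bZIP genes 3 did (14.3%, interval 3.05 to 36.3%, which includes the 4.05% of all coding genes). The 21 had 0.115 Mb of eligible sequence beside them, with 5 members, or 43.6 per Mb, and 3 of the 5 are those at Atf3.

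The summit windows, of 100 bp to either side, were poor in G and C. Their GC content was 36.9 ± 5.70% (SD, n = 418 windows), against 36.0 ± 5.68% in distal intronic peaks, 37.5 ± 6.82% in promoter peaks and 40.8 ± 8.47% in eligible windows. For base content, repeats and words, the eligible windows are the 164650 of the 165653 that hold no undetermined base. The CRE was found in 0 of 418 distal intergenic windows, which allows a share of up to 0.718% by a limit of 3 counts and of up to 0.879% by the exact interval. It was in 0.448% of distal intronic windows, 0.619% of promoter windows and 0.280% of eligible windows, so a difference was not detectable at this number of peaks. Another bZIP word, TGACTCA, which AP-1 binds, was in 7 windows (1.67%, interval 0.676 to 3.42%), against 2.51%, 2.17% and 1.47% in the same 3 sets. The bZIP word TGATGCAA was in 6 (1.44%, 0.529 to 3.10%), against 0.627% (0.252 to 1.29%), 0.495% (0.214 to 0.973%) and 0.714%. Its share was the highest here, but its interval overlaps those of both other peak classes and includes the eligible share. TTACGTAA was in 1 (0.239%), against 0.627%, 0.495% and 0.220%. Words of both strands were counted throughout.

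The DRE and the M1BP word, both of core promoters, were rare. The DRE, TATCGATA, was in 3 distal intergenic windows (0.718%), against 0.179% of distal intronic, 7.24% of promoter and 0.404% of eligible windows. The M1BP word, GGTCACACT, was in 2 (0.478%), against 0.179%, 2.41% and 0.0887%. The GAGA word, GAGAGAG, was in 13 (3.11%, interval 1.67 to 5.26%), against 3.40%, 4.39% and 2.13%. For the DRE and the M1BP word the distal intergenic share was nearer to those of distal intronic and eligible windows than to that of promoters. For the GAGA word its interval includes the values of all 3 other sets, so no order was detectable.

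Words that share CACTG did not all follow the same order among the classes. CACTGAGA, TACACTGA or both were in 54 distal intergenic windows (12.9%, interval 9.86 to 16.5%), against 9.49% of distal intronic windows (7.83 to 11.4%), 2.78% of promoter windows and 1.24% of eligible windows. These words led an earlier scan of all these peaks, so their presence is a description. CACTGNNAG, chosen after the sequences were seen, was in 52 (12.4%, 9.43 to 16.0%), against 10.9%, 4.64% and 2.26%. It overlaps CACTGAGA in the form CACTGAGAG. Members with it had a median signal of 129.7, and members without it one of 120.1. For CACTGAGA or TACACTGA the medians were 121 with and 122 without. CACTGTGC was less frequent in distal intergenic windows, with 12 (2.87%, 1.49 to 4.96%), than in distal intronic (5.64%, 4.36 to 7.16%) or promoter windows (4.89%, 3.89 to 6.06%), against 0.714% of eligible windows. CACAGTGG was in 15 (3.59%, 2.02 to 5.85%), against 6.27% (4.92 to 7.85%), 4.64% and 0.706%. For each of the words in this paragraph the intervals of the distal classes overlap, so their order between those classes is uncertain.

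The gapped word stood on one side of the summit. Within 400 bp of the 418 summits there were 103 matches, 101 of them distinct, and 68 (66.0%) started in the 150 bp before the summit when read along the strand of the word, against 8 (7.77%) in the 150 bp after it. The fullest bin of 50 bp, from 100 to 50 bp before the summit, held 35. Measured from each replicate's own summits, 69 of 103 matches lay in the 150 bp before in replicate 2 and 61 of 106 in replicate 3. At distal intronic peaks 156 of 257 matches lay before and 22 after, and at promoter peaks 81 of 215 before and 46 after. In the sequences printed above for mura, CG43401, lncRNA:CR45937, COX7AL2, tRNA:Ile-TAT-1-1 and mid, the capitals show this spacing.

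**Figure D5:**
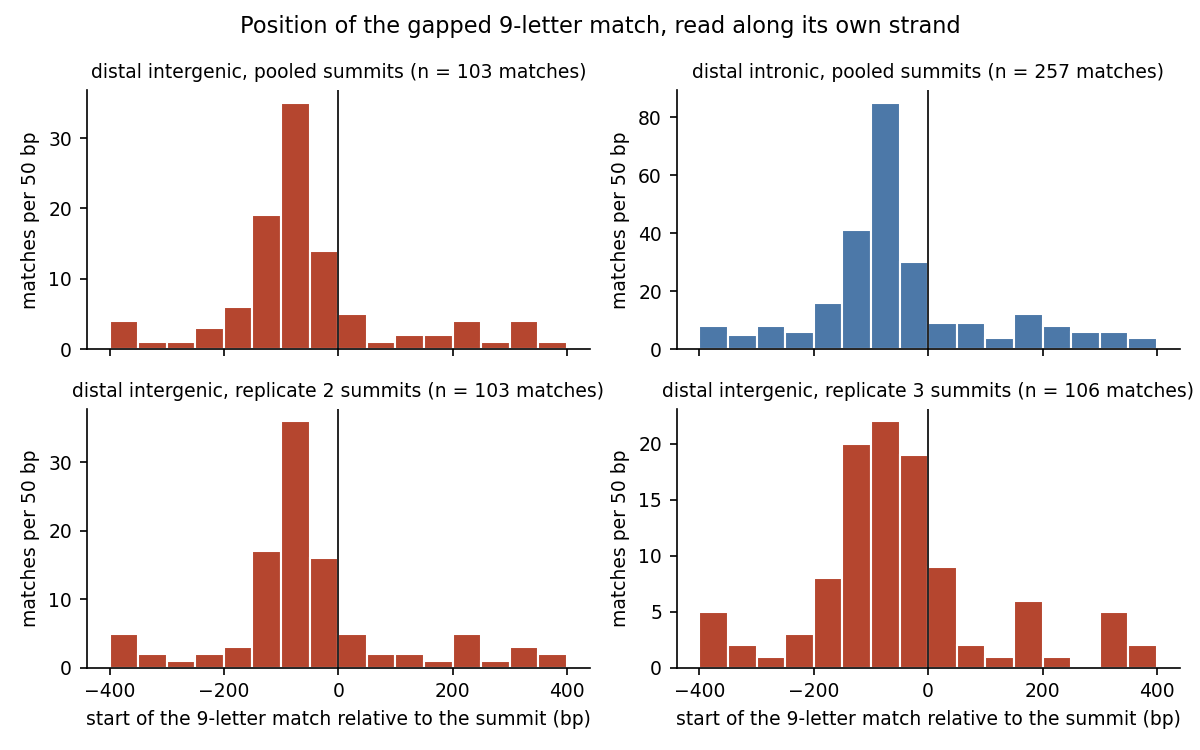
Number of matches to the gapped word per 50 bp, by the start of the match relative to the summit (bp), read along the strand of the word so that negative values lie before the summit. Upper panels show distal intergenic (103 matches) and distal intronic peaks (257) with pooled summits. Lower panels show distal intergenic peaks with the summits of replicate 2 (103) and of replicate 3 (106). Each has its highest bin at 100 to 50 bp before the summit. With replicate 3 summits that bin held 22 matches, close to the 20 and 19 of the bins on either side.

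The CTCF-like words had another arrangement. AGATGGCGC was in 14 distal intergenic windows (3.35%, interval 1.84 to 5.56%), against 1.25% of distal intronic (0.687 to 2.09%), 1.05% of promoter and 0.144% of eligible windows. AGGTGGCGC was in 12 (2.87%, 1.49 to 4.96%), against 0.985% (0.493 to 1.76%), 0.743% and 0.0972%. Both were chosen after the sequences were seen, and the intervals of the distal classes overlap. Among matches within 200 bp of the summit, the median start was 10 bp after it for AGATGGCGC and 17 bp after it for AGGTGGCGC. Matches were few, with 17 and 21 within 400 bp. From the summits of replicates 2 and 3 the medians were 18.5 and 18 bp for AGATGGCGC, and 10 and 35 bp for AGGTGGCGC. At distal intronic peaks they were 8 bp and 32 bp for the 2 words, and at promoter peaks 22.5 bp and -4 bp, the last being before the summit. The median signal was 120.6 in members with AGATGGCGC and 122 in those without it, and 151 in members with AGGTGGCGC and 121.5 in those without it. Of the 14 members with AGATGGCGC, 7 (50%, interval 23.0 to 77.0%) were among the strongest regions of both replicates, against 69.6% of the other members (64.8 to 74.0%), and of the 12 with AGGTGGCGC 8 were. CTCF itself was not measured here.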

How the data were processed

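ChIP-seq peak lists of one group, Atf-2-GFP embryos of biological replicates 2 and 3, were analysed. According to the readme texts deposited with them, a list was made per replicate against a control, another on both replicates pooled, and the IDR list from all of these. No aligner, peak caller or IDR threshold is named in the sources used here. Deposited values are the signal per region, used to rank and describe, and the −log10 q-value, which is tied at its maximum for IDR peaks and was not used. Fragments were 200 to 800 bp, per the labels' protocols.

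Summits were placed against the Ensembl release 115 annotation of Release 6 (23973 genes, 13945 coding, 5809 entries of transposable elements) with Python 3.11.15, numpy 2.4.6, pandas 2.3.3, scipy 1.17.1 and matplotlib 3.10.9. Classification was tested on simulated summits. Coordinates count from 1. None of the printed sequences came from chromosome arm 2R, although the word counts include its peaks. Shares carry exact (Clopper-Pearson) 95% binomial intervals, which cover counting error over peaks or windows only; the labels call the samples biological replicates and say no more of their origin. No p-value was computed. The members, gene lists and words were chosen with earlier results of these data known, and 3 words were added to the first 13 after the sequences were seen. Named genes are those flanking the 20 strongest members, those of gaps with 5 or more members, the 3 strongest members of each list and all bZIP genes; the rest were named after their values were seen. Alternatives changed the TSS distance, the annotation, the summit, the list, the windows and the replicates.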

Additional observations from a re-analysis of the deposited data

How the results depend on the processing

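The values are given for 91 alternatives in all, of which 56 stayed within the main value's interval or the replicate spread. The share of IDR peaks that were distal intergenic was 16.6% with a TSS distance of 250 bp, 10.7% with 1000 bp, 8.58% with 2000 bp, 15.1% with coding genes only, 11.5% with whole intervals outside genes and 11.1% in the strongest 1632 peaks. The median distance to a gene edge was 752, 1830 and 2659.5 bp at those TSS distances, 1565.5 bp with TSSs of all genes, 2715 bp with coding genes only, 1610 bp with whole intervals, 1249 bp in the strongest 1632 and 1496 bp without transposable elements, a choice made after seeing the data. The upstream share was 60.6% at 250 bp and 48.9% at 2000 bp. The median signal relative to distal intronic peaks was 0.966, 0.959 and 0.967 at those TSS distances, 0.959 with coding genes only, 0.948 at interval midpoints, 0.975 with whole intervals and 1.10 in the strongest 1632, where the direction turned. GC content was 36.0% in windows of 50 bp and 40.5% in windows of 250 bp on each side, where CACTGAGA or TACACTGA was in 3.59% and 18.4%. The share overlapping the strongest regions of both replicates was 56.2% when 50% of both intervals had to overlap, 93.3% with 2 times as many regions and 98.9% in the strongest 1632. The gapped word before the summit was in 54.6 to 70.5% of matches over all alternatives.

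With 1 replicate left out at a time, the strongest 3265 regions of the other replicate's list took the place of the IDR list. Those regions were not chosen by IDR, so their signal ratio is not the one given above for each replicate at IDR peaks. The share was 12.4 to 13.1%, the distance 1293.5 to 1333 bp, the upstream share 53.6 to 56.3% and the signal ratio 0.958 to 0.963. GC was 36.9 to 37.8%, the words 11.4 to 12.3% and the share of gapped words before the summit 54.6 to 69.0%. No paired analysis was possible because there is 1 group. The causes of these shifts were not tested. Depth is unknown, and with 2 replicates the spread is poorly known.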

Other observations

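Several gaps outside the naming rule were noticed after their values were seen. The 22128 bp between the divergent T-box genes Doc2 and Doc1, which act in the embryonic heart and amnioserosa, held 4 distal intergenic peaks, with signals of 125, 203, 122 and 103 from Doc2 towards Doc1. The gap before Myc, the growth regulator, held 4, of which the strongest had a signal of 173 and lay 12594 bp upstream. A pair of these 4 share 1 region in each replicate. Chromosome 4 held 5 members, beside lgs, zfh2 and toy, with signals of 94.7 to 367.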
